A study of Drosophila melanogaster with 8 samples.

Results

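Rab proteins are small GTPases that give each membrane compartment of the cell its identity. An exchange factor loads a Rab with GTP on its membrane, the active Rab recruits effectors such as motors and tethers, and a GTPase-activating protein returns it to the GDP form, which a dissociation inhibitor takes off the membrane. In neurons, Rabs direct the flow of new membrane from the ER and Golgi, the recycling of endosomes and the supply of synaptic vesicles, all of which are needed as pupal neurons grow processes and form synapses.

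The family was taken as every listed gene named Rab or RabX followed by a digit, and 29 of the 13989 genes in the expression tables of pupal CNS met this rule. RNA was sequenced from dissected CNS of *Drosophila* pupae, with about 10 CNS in a sample and 2 biological replicates in each of 4 groups. The first group was dStim knockdown at 36 h after puparium formation (APF), of the genotype ElavC155GAL4; dStimRNAi/tubulinGAL80ts, after 24 h of knockdown at 29 °C, and the second was wild type (Canton S) at 36 h. The third was the same knockdown genotype at 72 h APF, after 24 h of knockdown and 36 h of recovery, and the fourth was wild type at 72 h. Canton S carries none of the knockdown transgenes, so the genotype and the loss of dSTIM cannot be told apart. The labels name the 29 °C step only for knockdown, whereas the design scheme draws both genotypes on the same temperature course, and the part of temperature in the comparisons was not tested. ElavC155GAL4 drives expression in neurons, and GAL80ts represses it until the temperature is raised. The labels give 25 °C for rearing, and how fully the driver was held off before the 29 °C step is not known from these data. dSTIM is the ER calcium sensor that opens store-operated calcium entry.

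Levels are given as FPKM (sequenced fragments per kilobase of a gene's transcript, corrected for the size of the library), with a single value per gene in every group because the replicates had been pooled. No spread between replicates, interval or test could therefore be computed from these values, and the sequencing depth cannot be read from them. A gene was counted as expressed at a mean of at least 1 FPKM over the 4 groups, which held for 9668 genes. Stim itself was listed at 33.9 FPKM in knockdown against 42.2 in wild type at 36 h, and at 31.3 after recovery against 38.6 in wild type at 72 h. The log2 ratios of -0.32 and -0.31 have no error and show only a small difference in the whole CNS at either time. All 6 neuron markers (elav, n-syb, Syt1, brp, para and fne) were present, with summed FPKM of 1693 in knockdown and 1535 in wild type at 36 h, and 2462 after recovery and 1590 in wild type at 72 h. At 72 h, 3 of the 6 were past 1.5-fold higher after knockdown and recovery, with a median log2 ratio of 0.63. Relative to genes of like transcript length, the ratio was 0.21 for elav, 0.27 for brp, 0.07 for Syt1, 0.05 for para and -0.12 for fne. None of these was past 1.5-fold, and n-syb had no length.

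Of the 29 Rabs, 22 were expressed. Most were abundant, as the median expressed Rab had 105 FPKM in knockdown and 105 in wild type at 36 h, against 21.4 and 21.7 for all expressed genes. At 72 h the median Rab had 56.7 FPKM after recovery and 54.5 in wild type, against 16.8 and 16.6 for all expressed genes. Between 16 and 17 of the 22 lay above the 75th percentile of all listed genes in every group. Rab11, Rab1, Rab5, Rab2 and Rab3, which serve the recycling endosome, the ER to Golgi step, the early endosome, the Golgi and the synaptic vesicle, held the highest mean levels. Neighbours in this order cannot be separated, since no spread is known.

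**Figure D1:**
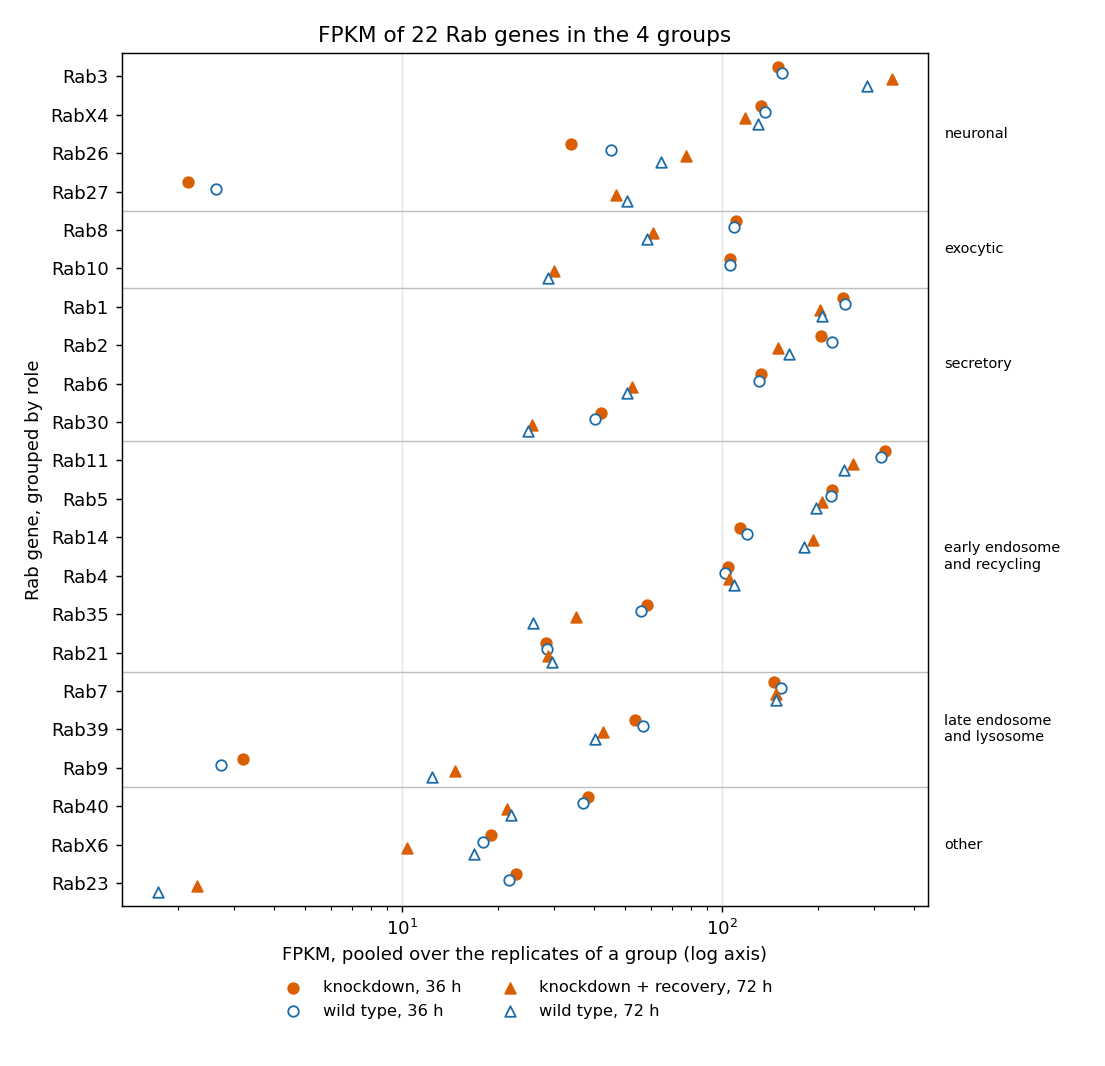
FPKM (log axis) of the 22 expressed Rabs in knockdown and wild type CNS at 36 h (circles) and 72 h (triangles), grouped by role, with 1 value per group pooled over replicates. Knockdown and wild type symbols lie close together for most genes, while the 72 h symbols of Rab27, Rab9 and Rab3 lie to the right of the 36 h symbols and those of Rab23, Rab10 and Rab6 to the left.

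The expressed Rabs shared a small and uniform size. Their open reading frames in Ensembl ran from 201 to 410 codons, 18 of 22 having at most 240 and Rab26 the most, and their median longest transcript was 1758 nt against 2047.5 nt for all expressed genes. They lay on all major arms, 6 on X, 5 on 2L, 3 on 2R, 3 on 3L and 5 on 3R.

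The remaining 7 Rabs had a mean under 1 FPKM. Rab9D, Rab9E and Rab9Fa were listed at 0 in all 4 groups. Rab9Db was listed at 0 except for 0.0655 FPKM in wild type at 36 h, and Rab9Fb at 0.0565 in knockdown and 0.137 in wild type at 36 h and 0 at 72 h. These 5 are closely related Rab9-like genes on X, and Rab9Fa and Rab9Fb were given the same locus, so reads that fit more than 1 copy make their values uncertain. RabX5 ranged from 0 in wild type at 36 h to 0.588 in wild type at 72 h. RabX2 had 1.17 FPKM in knockdown against 0.143 in wild type at 36 h, and 0.676 after recovery against 0.345 in wild type at 72 h. Its reported locus spans 44507 bp for a transcript of 791 nt, and whether reads of other genes enter its values is unknown. Like the other Rabs with a mean under 1 FPKM, it was not counted in what follows.

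The comparison of 72 h with 36 h asked which Rabs changed as the pupal CNS matured. The 2 time points come from separate tables that may have been normalized separately, and the median log2 ratio of all expressed genes was -0.40 both after knockdown and in wild type. Log2 ratios of 72 h over 36 h are therefore given relative to this median unless said otherwise, and a 2-fold difference was taken as the limit. Times are hours APF, and "after knockdown" stands for the knockdown genotype at both times, with recovery at 72 h. Past this limit, 5 of 22 Rabs were higher and 2 were lower at 72 h after knockdown, against 20.6% higher and 18.9% lower among 9442 genes. In wild type, 3 were higher and 2 were lower, against 19.2% higher and 16.2% lower among 9467 genes. These shares are near those of all genes or below them. The median Rab stood at a log2 of 0.12 after knockdown and 0.21 in wild type. The size of the change, without its sign, had a median log2 of 0.43 after knockdown and 0.48 in wild type for the Rabs, against 0.76 and 0.67 for all genes. That size was not computed for abundant genes alone, which vary less. With a mean of at least 10 FPKM, 7 of 21 Rabs were past 2-fold after knockdown, against 34.5% of genes. In wild type 5 of 21 were, against 29.7% of genes.

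Of the 4 Rabs grouped here as neuronal, Rab27 and Rab3 were past 2-fold higher in both genotypes, Rab26 was past it after knockdown but not in wild type, and RabX4 in neither. Rab27, which acts on secretory and synaptic vesicles (chromosome X, 1367917 to 1370963 of dm3), was the Rab with the largest difference. It had 46.9 FPKM at 72 h against 2.16 at 36 h after knockdown, and 50.6 FPKM at 72 h against 2.62 at 36 h in wild type, which are log2 ratios of 4.84 and 4.67. Its percentile among all listed genes was 83.1 at 72 h against 38.3 at 36 h after knockdown, and 84.8 at 72 h against 39.4 at 36 h in wild type. Rab3, the synaptic vesicle Rab that also sets the composition of fly active zones (2R, 6608833 to 6616695), had 340 FPKM at 72 h against 150 at 36 h after knockdown, and 285 FPKM at 72 h against 155 at 36 h in wild type. Its log2 ratios were 1.58 and 1.29, and it became the most abundant Rab at 72 h in both genotypes.

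Rab26, found on synaptic vesicles in mammals (3L, 21311874 to 21327290), had 77.4 FPKM at 72 h against 33.9 at 36 h after knockdown, and 64.7 FPKM at 72 h against 45.1 at 36 h in wild type. Its log2 ratio was past the limit after knockdown, at 1.59, and just inside it in wild type, at 0.92. RabX4, which is grouped here although no role is given for it, had 118 FPKM at 72 h against 132 at 36 h after knockdown and 130 FPKM at 72 h against 137 at 36 h in wild type, log2 ratios of 0.24 and 0.32 that were -0.16 and -0.08 without the centring and -0.23 and -0.08 relative to genes of like level. Together these 4 held 26.8% of all Rab FPKM at 72 h against 13.9% at 36 h after knockdown, and 25.4% at 72 h against 14.6% at 36 h in wild type.

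**Figure D2:**
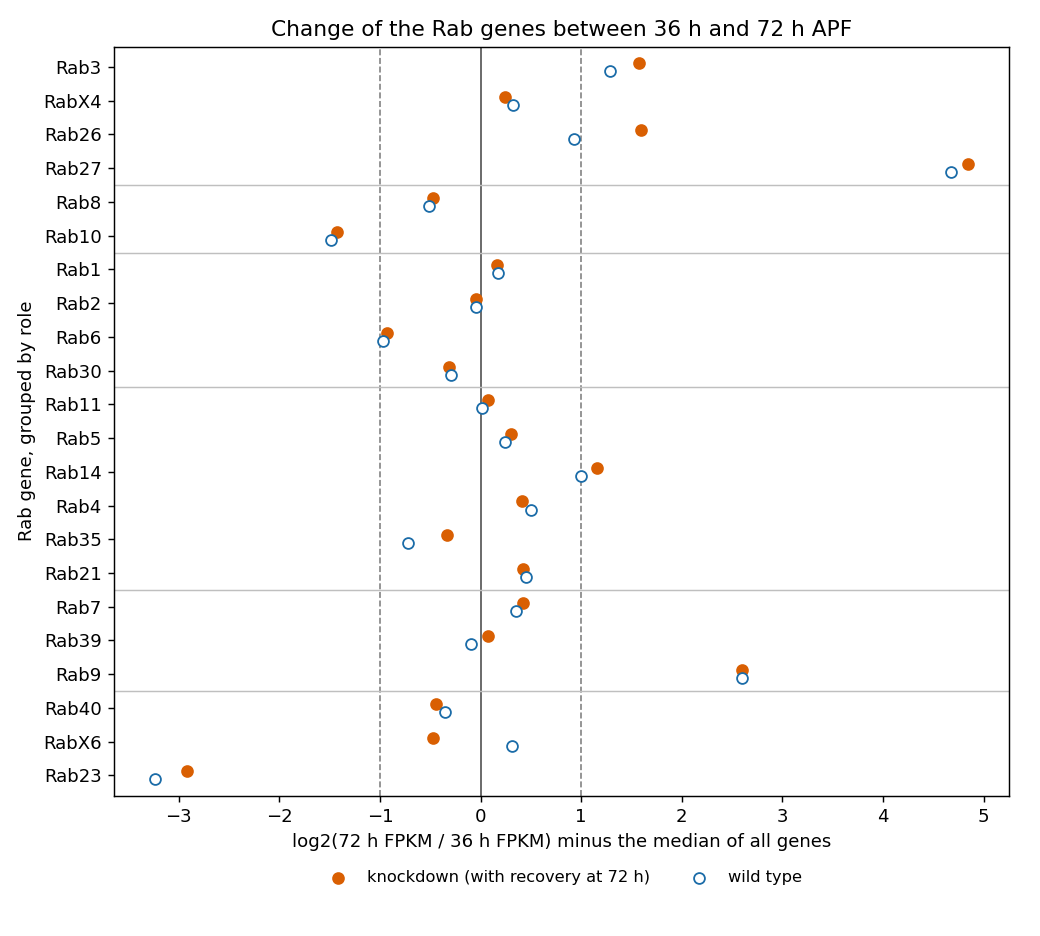
Log2 ratio of 72 h over 36 h FPKM, minus the median of all genes, for each expressed Rab after knockdown (filled) and in wild type (open), with dashed lines at a 2-fold difference. Rab27 lies farthest to the right (4.84 and 4.67) and Rab23 farthest to the left (-2.92 and -3.23), and most pairs of symbols nearly coincide.

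The endosomal Rabs differed among themselves. Rab9, which carries cargo from late endosomes to the Golgi (2L, 19432593 to 19435841), had 14.6 FPKM at 72 h against 3.20 at 36 h after knockdown, and 12.4 FPKM at 72 h against 2.72 at 36 h in wild type, with a log2 ratio of 2.59 in both. It was among the least abundant of the expressed Rabs at 36 h. Rab14, of endosomes and phagosomes (2L, 14355147 to 14358400), had 192 FPKM at 72 h against 114 at 36 h after knockdown, and 181 FPKM at 72 h against 120 at 36 h in wild type. Its log2 ratios of 1.15 and 0.99 fell on either side of the limit.

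The core endosomal Rabs did not pass the limit. Rab7, of the late endosome and lysosome, had 148 FPKM at 72 h against 146 at 36 h after knockdown, and 148 FPKM at 72 h against 153 at 36 h in wild type. Rab5, of the early endosome, had 207 FPKM at 72 h against 222 at 36 h after knockdown, and 197 FPKM at 72 h against 220 at 36 h in wild type. Rab11, of the recycling endosome, differed more in FPKM, with 258 FPKM at 72 h against 324 at 36 h after knockdown, and 241 FPKM at 72 h against 315 at 36 h in wild type. Relative to all genes these 3 stood at log2 ratios between 0.01 and 0.42, and relative to genes of like level between -0.45 and -0.04.

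Rab4, of fast recycling, had 105 FPKM at 72 h and 105 at 36 h after knockdown, and 110 FPKM at 72 h against 103 at 36 h in wild type. Relative to the median gene its log2 ratios were 0.41 and 0.50. Rab21, of the early endosome, ranged from 28.3 to 29.5 FPKM as deposited over the 4 groups, the narrowest range of any expressed Rab relative to its level. Relative to the median gene, its log2 ratios were 0.42 after knockdown and 0.46 in wild type. Rab39, of lysosomes, had 42.6 FPKM at 72 h against 53.5 at 36 h after knockdown, and 40.3 FPKM at 72 h against 56.8 at 36 h in wild type. The 6 Rabs of early and recycling endosomes together held 38.0% of Rab FPKM at 72 h against 37.2% at 36 h after knockdown, and 37.6% at 72 h against 36.3% at 36 h in wild type, so that their share hardly differed between the time points.

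Of the 2 Rabs grouped on the route from the Golgi to the cell surface, Rab10 was past 2-fold lower at 72 h and Rab8 was not. Rab10, which takes Golgi vesicles to the plasma membrane (X, 20119377 to 20125717), had 29.9 FPKM at 72 h against 106 at 36 h after knockdown, and 28.8 FPKM at 72 h against 107 at 36 h in wild type, log2 ratios of -1.42 and -1.49. Rab8, which serves the same route, had 60.9 FPKM at 72 h against 111 at 36 h after knockdown, and 58.3 FPKM at 72 h against 110 at 36 h in wild type. Its log2 ratios of -0.47 and -0.51 did not reach the limit. The share of Rab8 and Rab10 in all Rab FPKM was 4.18% at 72 h against 9.49% at 36 h after knockdown, and 4.17% at 72 h against 9.31% at 36 h in wild type.

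Among the Rabs of the ER and Golgi, Rab6 (2L, 12107287 to 12109124) stood apart. It had 52.6 FPKM at 72 h against 133 at 36 h after knockdown, and 50.6 FPKM at 72 h against 131 at 36 h in wild type, with log2 ratios of -0.93 and -0.97 just short of the limit. Rab30, also of the Golgi, had log2 ratios of -0.32 after knockdown and -0.30 in wild type, at 25.6 FPKM at 72 h against 42.0 at 36 h and 24.8 FPKM at 72 h against 40.2 at 36 h. Rab1 had 204 FPKM at 72 h against 240 at 36 h after knockdown and 206 at 72 h against 242 at 36 h in wild type. Rab2 had 150 FPKM at 72 h against 205 at 36 h after knockdown and 163 at 72 h against 222 at 36 h in wild type, so that both stayed within 0.2 log2 of the median gene.

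Rab23, which limits Hedgehog signalling in mammals and takes part in planar polarity in the fly (3R, 1505776 to 1511148), was the Rab with the largest difference downwards. It had 2.29 FPKM at 72 h against 22.8 at 36 h after knockdown, and 1.74 FPKM at 72 h against 21.6 at 36 h in wild type, log2 ratios of -2.92 and -3.23. Rab40, whose mammalian relatives carry a SOCS box, had 21.4 FPKM at 72 h against 38.3 at 36 h after knockdown, and 21.95 FPKM at 72 h against 37.0 at 36 h in wild type, which were log2 ratios of -0.44 and -0.35. Rab35, of recycling and actin (X, 20050512 to 20053871), had log2 ratios of -0.34 after knockdown and -0.72 in wild type.

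**Figure D3:**
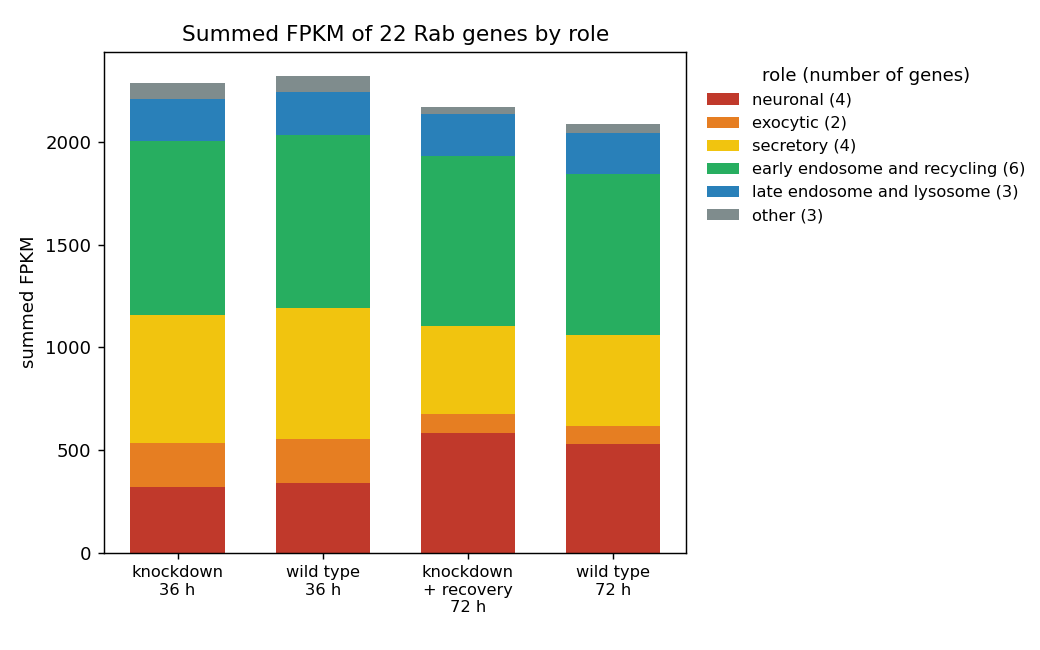
Summed FPKM of the 22 expressed Rabs in each group, stacked by role, with the number of genes of each role in the legend. The neuronal block takes 26.8% after recovery and 25.4% in wild type at 72 h, and 13.9% in knockdown and 14.6% in wild type at 36 h, while the total differs little between groups.

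The sum over all 29 Rabs was 2172 FPKM at 72 h against 2291 at 36 h after knockdown, and 2087 FPKM at 72 h against 2323 at 36 h in wild type. The sign of the change over time was the same in both genotypes, which share no samples, for 20 of 22 Rabs, against 88.3% of all genes, and differed only for Rab39, where both values were within 0.1 of 0, and RabX6. Without the centring, 4 Rabs were past 2-fold higher and 3 lower after knockdown, and 2 higher and 4 lower in wild type. In either direction 43.0% of all genes were then past the limit after knockdown and 39.4% in wild type. Rab14 after knockdown, at 0.75, and Rab3 in wild type, at 0.88, were then no longer past the limit, while Rab6 in both genotypes and Rab35 in wild type, at -1.12, were.

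Marker genes of several cell types differed over the same interval. The 6 glia markers summed to 6799 FPKM at 72 h against 788 at 36 h after knockdown, and to 6046 FPKM at 72 h against 850 at 36 h in wild type, with 4 of 6 past 2-fold higher in each. The 5 photoreceptor markers summed to 561 FPKM at 72 h against 205 at 36 h after knockdown and 404 FPKM at 72 h against 189 at 36 h in wild type, with 3 of 5 past 2-fold higher after knockdown, and 2 higher and 1 lower in wild type. Most of that difference was in ninaE, without which they summed to 239 FPKM at 72 h against 204 at 36 h after knockdown and 179 FPKM at 72 h against 188 at 36 h in wild type. The neuron markers went both ways, with 3 of 6 past 2-fold higher and 1 lower after knockdown, and 2 higher and 2 lower in wild type. Syt1 (2.02 after knockdown and 1.49 in wild type) and para (1.76 and 1.27) were higher in both genotypes, and fne (-1.51 and -1.72) was lower in both. Of the 4 fat body markers 1 was lower after knockdown and 1 was higher in wild type. The 5 muscle markers summed to 532 FPKM at 72 h against 41.6 at 36 h after knockdown and 513 FPKM at 72 h against 101 at 36 h in wild type, and all 5 were past 2-fold higher in both genotypes. Between the genotypes at 72 h the muscle markers went both ways. After recovery 1 was past 1.5-fold higher (Act88F, a log2 of 2.68) and 1 lower (the gene up, -0.84). No marker was at 0 in any group. Their part in the Rab values was not tested, and in RNA of whole CNS fewer cells of a type and less RNA per cell cannot be told apart.

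The comparison of knockdown with wild type asked whether the Rabs differed between the dStim knockdown genotype and Canton S. At 36 h, directly after knockdown, 0 of 22 Rabs were past 1.5-fold in either direction, against 12% of 9470 genes. The median log2 ratio of the Rabs was 0.00, with 11 above and 11 below 0, and 18 of 22 (81.8%) lay within 0.1 of 0 against 36.7% of genes. Rab1, for example, had 240 FPKM in knockdown against 242 in wild type, Rab10 had 106 against 107, and Rab21 had 28.3 against 28.4. Abundant genes vary less, and among genes with a mean of at least 10 FPKM the share past 1.5-fold was 5.88%. The share within 0.1 of 0 was not computed for these genes, so the Rabs have no background of like level there.

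The 4 Rabs outside that band at 36 h were Rab26, Rab27, Rab9 and Rab2. Rab26 had 33.9 FPKM in knockdown against 45.1 in wild type, the largest difference of any expressed Rab, at a log2 of -0.41. Rab27 had 2.16 FPKM in knockdown against 2.62 in wild type and a log2 of -0.28, and Rab9 had 3.20 FPKM in knockdown against 2.72 in wild type and a log2 of 0.23. Both genes had low levels at this time. Rab2 had 205 FPKM in knockdown against 222 in wild type, a log2 of -0.12. The muscle markers were all past 1.5-fold lower in knockdown at 36 h, 5 of 5, with summed FPKM of 41.6 in knockdown against 101 in wild type. The fat body markers went both ways, with summed FPKM of 81.8 in knockdown against 57.7 in wild type. Of these 4, 2 were past 1.5-fold higher, Lsp2 at a log2 of 0.62 and Fbp1 at 0.85. Lsp1beta at -0.55 and Lsp1alpha at -0.40 were lower, inside the limit. Of the photoreceptor markers 1 of 5 was higher and 1 lower. The lower 1 was ninaE, at 0.203 FPKM in knockdown against 0.344 in wild type, both near 0. The part of these cell types in the Rab values was not tested.

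At 72 h, after recovery, 1 of 22 Rabs was past 1.5-fold, against 18.5% of 9474 genes. This was RabX6 (3L, 690519 to 692915), for which no role is given here, with 10.4 FPKM after knockdown and recovery against 16.9 in wild type, a log2 of -0.70. At 36 h it had 19.1 FPKM in knockdown against 18.0 in wild type, a log2 of 0.08. Among genes with a mean of at least 10 FPKM the share past 1.5-fold at 72 h was 11.4%. The median log2 of the Rabs was 0.06, and 13 of 22 (59.1%) lay within 0.1 of 0, against 21.2% of genes. This count depended on the scaling, as 8 of 22 did when centred on transcript length, against 31.4% of genes, and 9 of 22 with the same upper quartile, against 18.5% of genes. No share within 0.1 was computed for abundant genes alone.

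**Figure D4:**
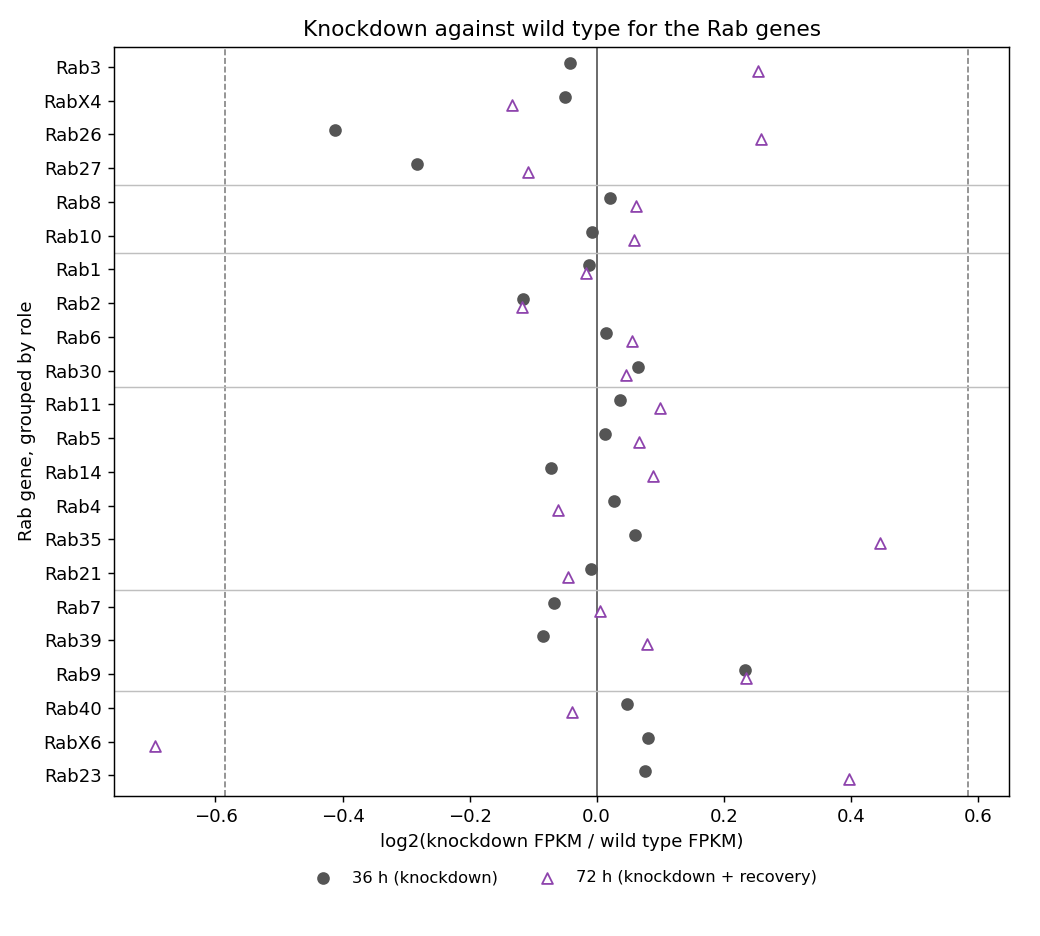
Log2 ratio of knockdown over wild type FPKM for each expressed Rab at 36 h (circles) and at 72 h after recovery (triangles), with dashed lines at a 1.5-fold difference. No circle lies beyond the lines, and the triangle of RabX6 (-0.70) is the only one that does.

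Several Rabs leaned upwards at 72 h without passing 1.5-fold. Rab35 had 35.0 FPKM after recovery against 25.7 in wild type, a log2 of 0.45, while at 36 h it had 58.3 in knockdown against 56.0 in wild type. Rab23 had 2.29 FPKM after recovery against 1.74 in wild type, a log2 of 0.40 at a low level. Rab26 had 77.4 FPKM after recovery against 64.7 in wild type, a log2 of 0.26, and so lay above wild type at 72 h and below it at 36 h. Rab3 had 340 FPKM after recovery against 285 in wild type, a log2 of 0.25. Rab9 had 14.6 FPKM after recovery against 12.4 in wild type, a log2 of 0.24, close to its value at 36 h.

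The log2 ratio of knockdown to wild type at 72 h minus that at 36 h was within 0.2 of 0 for 17 of 22 Rabs, against 42.5% of genes. The share was not computed for abundant genes alone, which vary less. The difference was 0.67 for Rab26, 0.39 for Rab35, 0.32 for Rab23, 0.30 for Rab3 and -0.78 for RabX6. With pooled values these differences have no error, and whether they exceed the spread between replicates is unknown.

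Transcript length moved with the 72 h comparison. Over all expressed genes in 20 bins of length, the median log2 ratio ran between -0.27 in the bin of the shortest transcripts and 0.50 in that of the longest, while at 36 h it ran between -0.09 and 0.17. Rab3 (3757 nt), Rab26 (3355 nt) and Rab35 (3348 nt) have the longest transcripts of the expressed Rabs, and RabX6 (1286 nt) has one of the shortest. Relative to genes of like length, the log2 ratio at 72 h was 0.10 for Rab3, 0.17 for Rab26, 0.35 for Rab35 and -0.50 for RabX6, so that RabX6 was no longer past 1.5-fold. It was larger than as deposited for shorter genes such as Rab39 (0.28 against 0.08), Rab14 (0.26 against 0.09) and Rab21 (0.23 against -0.05). With this centring 20 of 22 Rabs lay above 0, against 50.0% of genes, with a median of 0.12. As deposited 14 of 22 did, against 48.5% of genes. When the groups were scaled to the same upper quartile, the values of all genes at 72 h shifted by -0.14. The median of the Rabs was then -0.085, and 5 of 22 lay above 0, against 34.3% of genes.

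The other genes of the Rab cycle were taken from 4 lists, of 4 membrane attachment factors, 13 exchange factors, 9 GTPase-activating proteins and 17 effectors and tethers, all of them expressed. Past 2-fold at 72 h against 36 h, 4 of these 43 genes were higher after knockdown and 5 in wild type, which is 9.30% and 11.6% against 20.6% and 19.2% of all genes. None was lower, against 18.9% and 16.2% of all genes. Among genes with a mean of at least 10 FPKM, 34.5% and 29.7% were past 2-fold in either direction. At 72 h against 36 h, rab3-GEF, the exchange factor of Rab3, was the 1 exchange factor of 13 past 2-fold in each genotype. It had 112 FPKM at 72 h against 25.3 at 36 h after knockdown, and 73.3 FPKM at 72 h against 23.9 at 36 h in wild type, log2 ratios of 2.55 and 2.02. Rim, an active zone protein that binds Rab3, was the 1 effector of 17, with 69.0 FPKM at 72 h against 25.5 at 36 h after knockdown and 42.4 FPKM at 72 h against 23.0 at 36 h in wild type, log2 ratios of 1.84 and 1.28. Rph, the fly rabphilin and an effector of Rab3 and Rab27, had log2 ratios of -0.32 after knockdown and -0.15 in wild type.

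Both GTPase-activating proteins past 2-fold of the 9 were higher at 72 h. CG9339 (skywalker), a TBC protein of synaptic vesicles that acts on Rab35, had 169 FPKM at 72 h against 44.4 at 36 h after knockdown, and 145 FPKM at 72 h against 46.4 at 36 h in wild type. CG42795, another TBC protein, had 110 FPKM at 72 h against 21.5 at 36 h after knockdown, and 88.0 FPKM at 72 h against 17.9 at 36 h in wild type. Gdi, the GDP dissociation inhibitor, was the most abundant of all, with 254 FPKM at 72 h against 549 at 36 h after knockdown and 245 FPKM at 72 h against 493 at 36 h in wild type, log2 ratios of -0.71 and -0.61. betaggt-II, a subunit of the enzyme that attaches the lipid anchor of Rabs, was past 2-fold higher in wild type at 1.12 and not after knockdown at 0.82.

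Between knockdown and wild type at 36 h, 1 of these 43 genes was past 1.5-fold, and at 72 h 3 of 43 were, against 12% and 18.5% of all genes. Among genes with a mean of at least 10 FPKM the shares were 5.88% and 11.4%. GM130, a Golgi tether of Rab1, had 28.0 FPKM in knockdown against 13.3 in wild type, a log2 of 1.07. It was also higher at 72 h, with 19.0 FPKM after recovery against 11.5 in wild type, a log2 of 0.73, and Rab1 itself lay within 0.02 of 0 at both times. At 72 h, rab3-GEF had 112 FPKM after recovery against 73.3 in wild type, and Rim had 69.0 FPKM after recovery against 42.4 in wild type. Their log2 ratios of 0.61 and 0.70 were 0.12 and 0.21 relative to genes of like length, while that of GM130 was 0.70. The neuron markers and the length trend moved with these values, and their part in them was not tested.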

How the data were processed

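The reads were aligned by the authors to dm3 with TopHat2 2.0.11. With Cuffdiff 2.2.0 the authors deposited 1 FPKM per gene and group, geometrically normalized and pooled over the 2 replicates. Their fold changes, test statistics and p-values, and 2 further comparison tables from edgeR, were not used. No counts or values of single replicates were used, so no test across samples was run, and depth cannot be read from these values.

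Log2 ratios were computed from the FPKM without a pseudocount, for genes with a mean of at least 1 FPKM over the 4 groups and above 0 in both groups compared. Ratios of 72 h over 36 h had the median of all such genes subtracted. Counts used limits of 1.5-fold for knockdown and 2-fold for time, and those of the Rabs and the Rab-cycle genes are set beside the share of all genes past the same limit. Every Rab is named, and of other Rab-cycle genes those past a limit plus some of the most abundant. Rph was picked after its values were seen. The members, roles and gene lists were chosen with earlier results of these data known. All 29 names matched a FlyBase gene in Ensembl release 115, which gave lengths (98.2% of expressed genes) and codons but no coordinates. Coordinates are those of dm3 in the tables. The ratios and centring were run on simulated data in which few genes changed. That checked the code and not how well the centring suits these data. Python 3.11.15, pandas 2.3.3, NumPy 2.4.6 and matplotlib 3.10.9 were used. Alternatives were other pseudocounts, filters, limits, scalings and centrings.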

Additional observations from a re-analysis of the deposited data

How the results depend on the processing

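No paired analysis was possible because the pooled FPKM carry no value per replicate, and for the same reason no replicate could be left out. Of 570 log2 ratios of single Rabs under settings that could change them, 441 moved by at most 0.1 and 129 moved by more. Scaling, centring on all genes and the higher filter move all Rabs of a comparison by the same amount. These ratios are therefore not separate checks. Of those past a limit, 0 changed sign, but such ratios lie well away from 0, so that count could hardly have differed. At 36 h the Rabs past the limit numbered 1 (Rab26) at a limit looser than 1.5-fold, against 23.6% of genes. With no filter they numbered 2 (RabX2 and Rab9Fb, both under 2 FPKM), against 20.6% of genes. At 72 h the Rabs past the limit numbered 3 at the looser limit, against 40.3% of genes, and 0 at 2-fold, against 7.69%. They numbered 2 with no filter, against 27.7% of genes, and 0 when centred on transcript length, against 14.5%. The median of the Rabs at 72 h was -0.085 with the same upper quartile. For 72 h over 36 h after knockdown, 4 Rabs were past 3-fold, against 23.2% of genes. The median of the Rabs was -0.28 as deposited, -0.29 centred on level, 0.22 centred on length and -0.028 with a mean of at least 10 FPKM. As deposited, the median of all genes was -0.40. In wild type, 9 Rabs were past 1.5-fold, against 54.8% of genes, and 3 past 3-fold, against 20.5%. The median of the Rabs was -0.19 as deposited, against -0.40 for all genes, and -0.15 centred on level. The count of expressed Rabs stayed within 1.5 times under both other limits. The values of Rabs under 1 FPKM rest on few reads, and these Rabs enter the counts only with no filter.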

Other observations

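Another 4 Rab genes are listed under older names and so fell outside the naming rule. ltd, the fly Rab32 and a gene of lysosome-related organelles such as eye pigment granules (2R, 5065369 to 5073866), had 13.3 FPKM at 72 h against 139 at 36 h after knockdown, and 20.1 FPKM at 72 h against 127 at 36 h in wild type. Its log2 ratios of -2.98 and -2.26, relative to the median of all genes, are of the size of those of Rab23. Between knockdown and wild type its log2 ratio was 0.13 at 36 h and -0.59 at 72 h, which is past 1.5-fold. Rab-RP4 (Rab18, of the ER and lipid droplets) had 56.5 FPKM after recovery against 69.2 in wild type at 72 h, and 45.7 in knockdown against 46.0 in wild type at 36 h. Rab-RP3 (Rab19) had 16.5 FPKM after recovery against 20.1 in wild type at 72 h, and 24.3 in knockdown against 27.4 in wild type at 36 h. chrw (RabX1) stayed between 17.7 and 21.5 FPKM in all 4 groups.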
